A study of Mus musculus with 17 samples.

Results

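The genes described here are the immune, cytokine and interferon genes of a cDNA array study of mouse liver lacking alpha-fetoprotein. They were chosen by symbol alone, as every named gene of the array whose symbol marks a major histocompatibility gene (H2), a chemokine or its receptor, an interleukin or its receptor, an interferon regulatory factor, an interferon-induced gene (Ifi or Oas), a Stat, a Socs, a Toll-like receptor or a C1q chain. The rule found 109 of 9030 named genes, on 129 of 20794 probes, and 17 of them had several probes. They comprised 10 antigen presentation genes, 27 chemokine genes, 32 interleukin genes, 34 interferon and signalling genes, and 6 genes of sensors and complement.

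Liver RNA of single mutant animals was hybridised against pooled wild-type liver RNA in the other colour. The adult group was 6 male Afp knockout mice aged 17 weeks, set against a pool of 6 wild-type males, on 11 arrays; 5 animals were measured with both dye orientations and animal 5 was measured in Cy5 only. The fetal group was 6 Afp knockout embryos, 3 female and 3 male, set against a pool of 4 wild-type animals on 6 arrays that carried the mutant RNA in Cy5 throughout. The labels put the embryos at day 7.5, an age that was not checked, and call the fetal pool female on 4 arrays and male on 2. The mouse strain and the construction of the allele are not given in the sources used.

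The innate immune system senses microbes and damage through Toll-like receptors and complement, spreads the signal by cytokines, and calls in leukocytes by chemokines. Interferons bind cell surface receptors and act through Janus kinases on Stat proteins, which with Irf9 or alone switch on interferon-induced genes, while Socs proteins damp that signal. In liver, hepatocytes make most complement and many acute phase proteins, and the resident Kupffer cells, dendritic cells and lymphocytes carry most of the H2 class II molecules and chemokine receptors. The fetal liver also makes blood cells.

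Every value below is a log2 ratio of mutant over pool, where 0 is no difference, and is given as mean ± SD between animals. The ratios carry no level, so neither the abundance of a transcript nor the presence of liver markers can be read from them. A gene passed when its Benjamini-Hochberg adjusted p in limma, a linear model fitted over all features, was under 0.05. Wild-type animals were measured as pools alone, so how much they vary among themselves enters no test, and the small number of mutants sets the precision. Each array held 20078 to 20697 values. Afp itself stood at -0.025 ± 0.19 in the adults (n = 6, adjusted p = 0.944), which does not check their genotype label, and at -8.40 ± 0.23 in the embryos (n = 6, adjusted p = 1.25e-08). Both the sign of the Cy3 mutant columns and the row naming of the fetal arrays were inferred from the values. Embryo 6 stood apart from the other embryos, with 106 values above 10 where the others had 20 to 52. Without embryos 5 and 6, a pair left out after seeing the data, no member passed by limma either, against 0.0117% of features, and without embryo 6 alone again 0, against 0.0291%.

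No immune, cytokine or interferon gene passed in any of the 4 comparisons made. In adult livers 0 of 108 members passed by limma, against 0.0% of all 17039 features, and 12 had an unadjusted p under 0.05, against 7.71% of all features. Of these 12, 3 lay above 0 and 9 below, against 3.36% and 4.35% of all features. In the embryos 0 of 83 members passed by limma, against 0.151% of 17242 features, and 18 had an unadjusted p under 0.05, a share of 21.7% against 20.8% of all features. Of these 18, 10 lay above 0 and 8 below, against 10.9% and 9.88%. In all, 48 members had an adult mean above 0 and 60 below, with a median of -0.015, against a median of 0.0081 over all features. In the embryos 48 lay above and 35 below, with a median of 0.021, against 0.0046 over all features. In whole-liver RNA, fewer cells of a type and less RNA per cell cannot be told apart.

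The sensors and the first complement component were near 0 in both ages with the exception of C1qb. Tlr12, a receptor for profilin, averaged -0.019 ± 0.47 in adults (n = 5) and -0.0078 ± 0.19 in embryos (n = 6). Tlr5, the flagellin receptor, averaged -0.017 ± 0.54 and 0.0093 ± 0.35 (n = 6 each). Tlr6, which senses lipopeptides together with Tlr2, averaged -0.056 ± 0.11 and 0.057 ± 0.23 (n = 6 each). The means of all 3 receptors were smaller than their spread between animals.

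C1qb encodes a chain of C1q, the recognition molecule of the classical complement pathway that macrophages produce. It lay between -0.44 and -0.23 in the adults, with a median of -0.33, and between -0.92 and 0.03 in the embryos, with a median of -0.23. After averaging over dyes all 6 adult animals were below 0 within a narrow range, and 5 of 6 embryos were below 0 over a wide one. The adult mean of -0.33 ± 0.07 had the smallest unadjusted p of all adult members and did not pass (adjusted p = 0.639), nor did the fetal mean of -0.39 ± 0.38 (adjusted p = 0.175). The arrays with the mutant in Cy5 averaged -0.37 and those with the mutant in Cy3 -0.30, but the orientations had opposite signs in 2 of 5 animals. Animal 1 read 0.23 in Cy5 and -0.88 in Cy3, and animal 6 read -0.96 in Cy5 and 0.20 in Cy3, so single arrays ranged more widely than the animal means. Without embryos 5 and 6 the fetal mean was -0.47, and with the fetal rows named as deposited it was 0.31. The chains that assemble with it had means nearer 0. C1qa averaged 0.003 ± 0.26 in adults and -0.021 ± 0.16 in embryos. C1qc averaged 0.16 ± 0.12 in adults and 0.072 ± 0.29 in embryos.

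**Figure D1:**
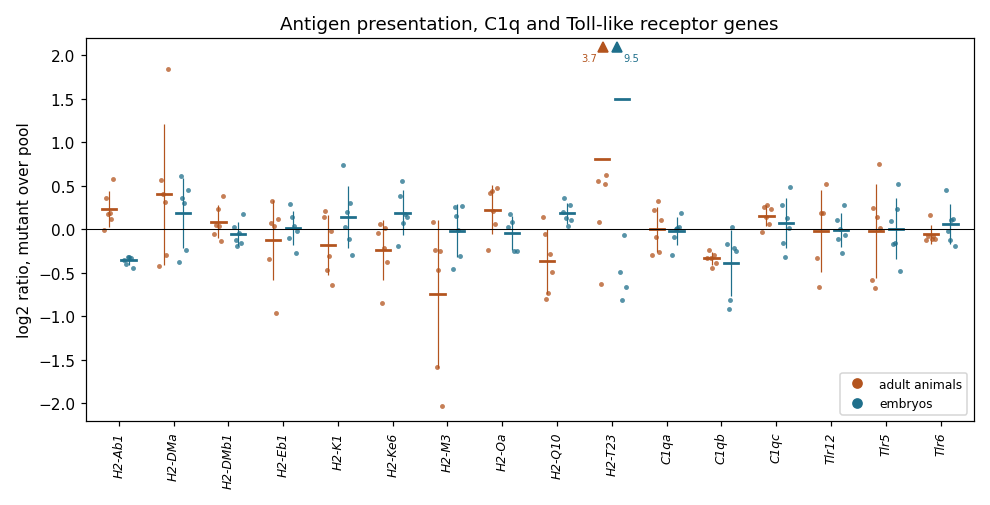
Log2 ratio of mutant over pool (y axis) for each antigen presentation, C1q and Toll-like receptor gene (x axis). Each point is an animal, adults left and embryos right, the short bar is the mean and the vertical line the SD; a triangle with its value stands for an animal beyond the axis, and no SD is drawn there. The 6 adults lie close together below 0 for C1qb, and the 6 embryos do so for H2-Ab1.

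Among interleukins and their receptors, Il7, Il6ra and Il10ra had the lowest adult means, and none passed. Il7, a growth factor of lymphocytes, ran from -1.40 to 0.10 in the adults, with a median of -0.69. It was below 0 in 5 of 6 animals, at -0.70 ± 0.59 (adjusted p = 0.639), and stood at -0.69 on the arrays with the mutant in Cy5 and -0.71 on those with the mutant in Cy3. Il15, a growth factor of natural killer and memory T cells, ran from -0.75 to 0.24 with a median of -0.26, and Il6ra, the receptor chain through which Il6 drives the acute phase response, from -1.06 to 0.42 with a median of -0.59. Both were below 0 in 5 of 6 animals, and neither mean, -0.26 ± 0.34 or -0.50 ± 0.56, passed (adjusted p = 0.657 and 0.639). Il10ra, a chain of the receptor for the anti-inflammatory Il10, averaged -0.44 ± 0.60 (adjusted p = 0.651). None of these 4 genes has a fetal value, since their probes lie where the fetal rows could not be named.

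Il18bp, a secreted protein that binds and neutralises Il18, lay on the same side in both ages. Its values ran from -0.20 to 0.48 in the adults, with a median of 0.35, and from -0.032 to 0.59 in the embryos, with a median of 0.28. In each age 5 of 6 animals were above 0. The means were 0.28 ± 0.24 and 0.28 ± 0.24, and neither passed (adjusted p = 0.639 and 0.174). Without embryos 5 and 6 the fetal mean was 0.20, and with the dye profile, explained with Il1b, subtracted it was 0.36 and passed (adjusted p = 0.0277). In that fit 30.3% of all features passed. Il18r1, a receptor chain for Il18, averaged 0.60 ± 1.74 in adults and 0.18 ± 0.15 in embryos, and the adult spread came with opposite values by dye, at 1.60 on the Cy5 arrays and -1.47 on the Cy3 arrays.

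Il1b, a central inflammatory cytokine, ran from -0.85 to 1.01 in the adults, and was below 0 in 6 of 6 embryos, from -0.75 to -0.035 with a median of -0.27. The adult mean was 0.16 ± 0.64 (adjusted p = 0.830) and the fetal mean -0.33 ± 0.25 (adjusted p = 0.132). The dye profile, the mean over 5 adults of 0.5 times the Cy5 value minus the Cy3 value, was -0.72 for Il1b. The profile was subtracted as a fixed value, so its own error enters none of the p-values after subtraction. Il1b stood at 0.38 in the embryos with that profile subtracted, and at -0.41 without embryos 5 and 6. Il24, a cytokine of the Il10 family, averaged 0.10 ± 0.71 in adults and 0.25 ± 0.33 in embryos, and Il34, a ligand of the Csf1 receptor, 0.31 ± 0.72 and -0.26 ± 0.48. Il17rc, a subunit of the receptor for Il17, averaged 0.20 ± 0.49 and 0.25 ± 0.34. These 3 means did not exceed their spread. Il11, a cytokine related to Il6, was measured in 5 adults and averaged 1.07 ± 1.56, from -0.15 to 3.70, or 0.41 without animal 4, the highest.

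The chemokine ligands Ccl4, Ccl7 and Ccl20, which draw monocytes and lymphocytes, had adult means below 0, and none passed. Ccl4, an attractant of monocytes, ran from -0.87 to 0.25 with a median of -0.77. The animals split into 4 near the low end and 2 above 0, and the mean was -0.50 ± 0.50 (adjusted p = 0.639). Ccl7, which attracts monocytes through Ccr2, ran from -0.95 to 0.26 with a median of -0.41, and averaged -0.42 ± 0.43 with 5 of 6 animals below 0 (adjusted p = 0.639). Ccl20, the ligand of Ccr6, was below 0 in 6 of 6 animals, from -0.92 to -0.052 with a median of -0.18. That mean of -0.32 ± 0.32 (adjusted p = 0.642) joined 0.37 on the arrays with the mutant in Cy5 and -1.18 on those with the mutant in Cy3, so the orientations disagreed in sign. The 22 ligands together had a median of -0.01 in adults, with 10 above and 12 below 0.

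In the embryos, Cxcl14, a chemokine of epithelia, was below 0 in 6 of 6 animals, from -1.77 to -0.086 with a median of -0.27, and averaged -0.51 ± 0.63 (adjusted p = 0.237). That size rests on embryo 6, the lowest, since the mean was -0.25 without it and -0.19 without embryos 5 and 6. The 2 probes of Cxcl14 differed by 0.56 in their fetal means, and the 3 probes of Cxcl12 by 0.57. Cxcl12, which retains blood stem cells through Cxcr4, averaged 0.017 ± 0.17 in adults, and was above 0 in 6 of 6 embryos, from 0.014 to 0.45 with a median of 0.12, at 0.16 ± 0.15 (adjusted p = 0.266). Its fetal mean was 0.11 without embryo 6, the highest, and 0.098 without embryos 5 and 6. The fetal means of its 3 probes were -0.046, 0.013 and 0.52, and the last of these had a dye profile of 0.45. Ccl12, a monocyte attractant, averaged 0.05 ± 0.58 in adults and 0.34 ± 0.41 in embryos (adjusted p = 0.240), or 0.31 without embryos 5 and 6. With its dye profile of 0.35 subtracted, the fetal value of Ccl12 was -0.01. The sign was shared by all embryos for the first pair of genes and by 5 of 6 for Ccl12.

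Of the 5 chemokine receptors, Ccr6 in the adults and Ccr7 in the embryos lay on the same side of 0 in every animal. Of all features, 3.45% lay above 0 in every adult and 2.82% below. In every embryo 8.34% of features lay above 0 and 7.5% below. Ccr7, which guides dendritic cells and lymphocytes to lymph nodes, lay below 0 in 6 of 6 embryos, from -0.44 to -0.16 with a median of -0.31. The adults averaged -0.16 ± 0.33 (adjusted p = 0.737), and the fetal mean of -0.31 ± 0.11 did not pass (adjusted p = 0.0891). With the dye profile subtracted the fetal value was -0.21, without embryos 5 and 6 it was -0.28, and with the fetal rows named as deposited it was -0.017. Ccr6, the receptor of Ccl20, lay above 0 in 6 of 6 adults, from 0.089 to 0.29 with a median of 0.20, and averaged 0.20 ± 0.08 (adjusted p = 0.643), against -0.024 ± 0.11 in embryos (adjusted p = 0.861). Both orientations of the adult arrays had Ccr6 above 0, at 0.10 on the Cy5 arrays and 0.33 on the Cy3 arrays. Ccr1 averaged -0.37 ± 0.65 in 5 adults. Cxcr5, a receptor of B cell follicles, averaged -0.047 ± 0.22 in adults and 0.20 ± 0.67 in embryos. Its fetal mean owed its sign to embryo 6, at 1.53, and was -0.061 without it and -0.072 without embryos 5 and 6. Embryo 6 read the same 1.526 for Ifit3 and Il17rd, and the origin of this shared value was not tested.

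**Figure D2:**
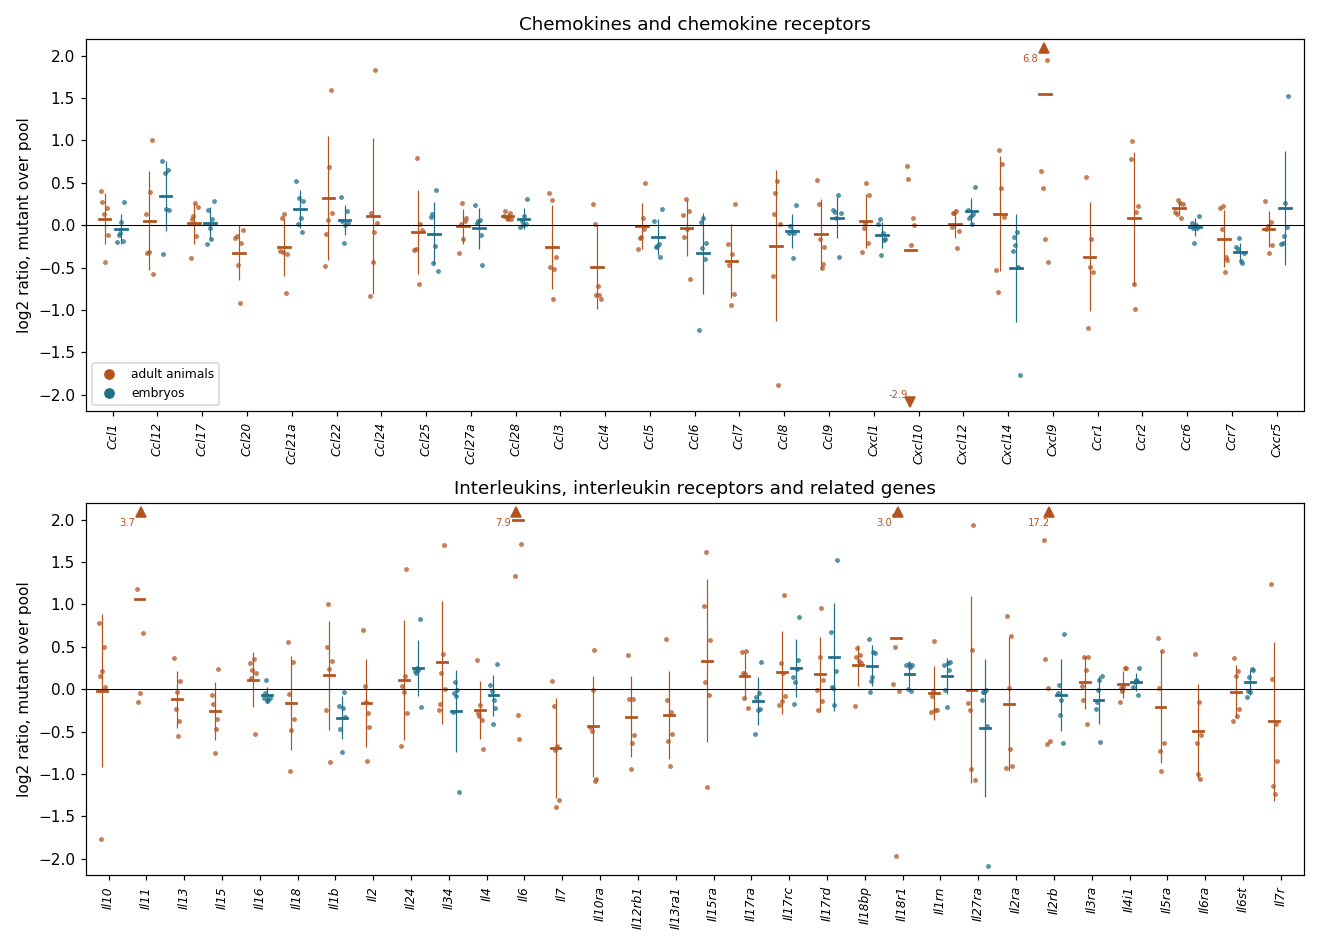
Log2 ratio of mutant over pool (y axes) for each chemokine gene (top) and interleukin gene (bottom), drawn as in the plot of antigen presentation genes; genes with adult points only have no fetal value that can be placed. The adult readings of Il2rb, Il6 and Cxcl9 lie far beyond the axis, and the 6 embryos of Ccr7 lie close together below 0.

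A panel of late probes carried 26 of the members, among them Il7, Il15, Il6ra, Il10ra, Ccl4, Ccl7, Ccl20 and Ccr1. All their probes lie between probe 20265 and probe 20655, where the row offset of the fetal arrays could not be placed. In adults, 20 of these 26 members were below 0, with a median of -0.24, while the 82 tested members up to probe 20000 split into 42 above and 40 below, with a median of 0.0038. The other named genes of a stretch of 200 probes there, which were not chosen for an immune role, leaned the same way, with 108 of 142 below 0 and a median of -0.21. The animal medians of the 26 members were 0.49, -0.087, -0.66, -0.57, -0.21 and -0.36 in animals 1 to 6, and those of the 142 neighbours 0.16, -0.098, -0.46, -0.40, -0.053 and -0.19. The signs were thus the same in each animal for the members and their neighbours. The part of the probes' place on the array in the low chemokine and interleukin values was not tested.

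**Figure D3:**
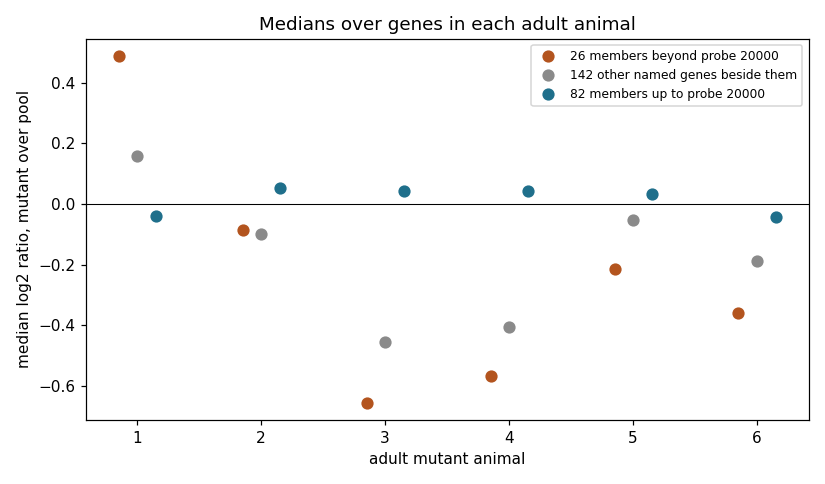
Median log2 ratio over genes (y axis) in each adult mutant animal (x axis), for the 26 members beyond probe 20000, the 142 other named genes beside them and the 82 members up to probe 20000. The first 2 sets are on the same side of 0 in every animal, above it in animal 1 and below it in animals 2 to 6.

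Of the Stat genes, the transcription factors that cytokine receptors activate, all 5 had adult means above 0, with a median of 0.089. Stat5a, which mediates growth hormone and Il7 signals, was above 0 in 6 of 6 adults, from 0.007 to 0.58 with a median of 0.26. The mean of 0.28 ± 0.20 did not pass (adjusted p = 0.639), and in the embryos it was 0.025 ± 0.40 (adjusted p = 0.932). The other adult means were 0.10 ± 0.23 for Stat3, which mediates Il6 signals, 0.089 ± 0.82 for Stat5b, 0.023 ± 0.15 for Stat2 and 0.0047 ± 0.26 for Stat4, each within its spread. In the embryos Stat2 averaged 0.038 ± 0.31, Stat3 0.0094 ± 0.20, Stat4 0.12 ± 0.51 and Stat5b -0.10 ± 0.26. The 4 Socs genes, which encode feedback inhibitors of these signals, had adult means from -0.50 ± 1.38 for Socs7 to -0.025 ± 0.48 for Socs2. The mean of Socs7 rests on animal 5, at -3.26 on its single Cy5 array. Its median was -0.011, with 3 animals above and 3 below 0, and its mean was 0.057 without that animal. Socs5 was at -0.17 ± 0.35 in adults and at -0.25 ± 0.16 in embryos, below 0 in 5 of 6 embryos (adjusted p = 0.136), and at -0.24 without embryos 5 and 6. Its dye profile of -0.28 was larger in size than its fetal mean. Socs1 averaged -0.16 ± 0.32 and 0.038 ± 0.39.

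Of the 9 genes with an Irf symbol, 5 had an unadjusted p under 0.05 in the embryos, against 20.8% of all features. They were Irf9, Irf1, Irf7, Irf3 and Irf5, of which Irf3 and Irf5 were named after their values were seen. Irf2bp1, among the 9 by its symbol alone, encodes a binding protein of Irf2. Irf1, a factor induced by interferon gamma that activates H2 and other genes, was above 0 in 6 of 6 embryos, from 0.16 to 0.57 with a median of 0.39. The adult mean was 0.063 ± 0.34 (adjusted p = 0.898) and the fetal mean 0.37 ± 0.16 (adjusted p = 0.0891). Irf7, the factor that amplifies type I interferon, was also above 0 in 6 of 6 embryos, from 0.17 to 0.85 with a median of 0.26. It averaged 0.099 ± 0.46 in adults (adjusted p = 0.867) and 0.34 ± 0.26 in embryos (adjusted p = 0.131). Irf3, which responds to microbial nucleic acids, lay below 0 in 6 of 6 embryos at -0.26 ± 0.18 (adjusted p = 0.136), and Irf5 averaged -0.22 ± 0.18 (adjusted p = 0.182). These fetal means thus did not share a direction.

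Irf9, a transcription factor of the type I interferon response, was above 0 in 6 of 6 animals of both ages. Every embryo was above 0 for 7 of 81 members (8.64%), near the 8.34% of all features. Irf9 ran from 0.089 to 1.11 in adults with a median of 0.17, and from 0.063 to 0.79 in embryos with a median of 0.47. The means were 0.32 ± 0.39 in adults (adjusted p = 0.647) and 0.45 ± 0.23 in embryos (adjusted p = 0.0890). The adult mean was 0.16 without animal 5, the highest, which was measured in Cy5 only. Its adult value depended on the dye, at 1.11 on the Cy5 arrays and -0.79 on the Cy3 arrays, and its dye profile of 0.95 exceeded its fetal mean. With that profile subtracted the fetal value was -0.50. On the fetal arrays the mutant and Cy5 cannot be told apart. The same subtraction gave 0.14 for Irf1, -0.20 for Irf7 and 0.049 for Irf3. The dye profile of Irf3, at -0.31, was larger in size than its fetal mean. Without embryos 5 and 6 the fetal means were 0.36 for Irf9, 0.33 for Irf1 and 0.38 for Irf7. Irf4, a factor of lymphocytes, averaged -0.45 ± 0.48 in adults with 5 of 6 below 0, at 0.014 on the Cy5 arrays and -0.93 on the Cy3 arrays. Irf2, which can oppose Irf1, averaged -0.34 ± 0.39 with 5 of 6 adults below 0.

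Interferon-induced genes had means mostly below 0 in the adults, some of them close to 0, and mostly above 0 in the embryos. Of the 15 Ifi and Oas genes tested in the adults, 11 had a mean below 0, with a median of -0.037, and of 15 tested in the embryos 12 had a mean above 0, with a median of 0.095. The medians over all named genes were -0.006 in adults and 0.016 in embryos. Of all features, 48.1% had an adult mean below 0 and 51.0% a fetal mean above 0. The adult means of Ifi27, Ifi35 and Oas1f were -0.0015, -0.0043 and -0.0057. None of the Ifi and Oas genes passed by limma. An unadjusted p under 0.05 was reached by 0 of 15 in the adults, against 7.71% of all features, and by 3 of 15 in the embryos, against 20.8%, a share near that of all features. Ifitm3, a membrane protein that blocks virus entry, was below 0 in 6 of 6 adults, from -0.54 to -0.04 with a median of -0.15, and above 0 in 6 of 6 embryos, from 0.071 to 1.21 with a median of 0.33. The adult and fetal ranges of Ifitm3 did not overlap when both dyes were averaged, for which the share over all features was not counted. They overlapped when the Cy5 arrays of the adults were used alone. Its means were -0.24 ± 0.21 in adults (adjusted p = 0.644) and 0.43 ± 0.40 in embryos (adjusted p = 0.155), or 0.53 without embryos 5 and 6 and 0.27 without embryo 1, the highest.

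Ifi27, an interferon-induced protein of membranes, averaged -0.0015 ± 0.14 in adults, and ran from -0.096 to 0.92 in embryos with a median of 0.50, above 0 in 5 of 6, at 0.49 ± 0.38 (adjusted p = 0.122). Its dye profile was -0.28, so subtraction gave a fetal value of 0.77. That value passed (adjusted p = 0.00623), in the fit in which 30.3% of all features did. Without embryos 5 and 6 the fetal mean of Ifi27 was 0.43. Ifitm1, a relative of Ifitm3, averaged -0.094 ± 0.32 in adults and 0.33 ± 0.20 in embryos (adjusted p = 0.117), above 0 in 5 of 6 embryos, with a larger dye profile of 0.46. Without embryos 5 and 6 its fetal mean was 0.40. Ifi205, of the family of interferon-induced DNA-binding proteins, averaged 0.38 ± 0.54 in adults and 0.41 ± 0.52 in embryos. With its dye profile of 0.45 subtracted, its fetal value was -0.045. Oas1h, related to the antiviral oligoadenylate synthetases, averaged 0.19 ± 0.16 in adults and 0.011 ± 0.29 in embryos. Each of these means lay within about the spread of its animals, except those of Oas1h in the adults and of Ifi27 and Ifitm1 in the embryos, which exceeded 1 SD.

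**Figure D4:**
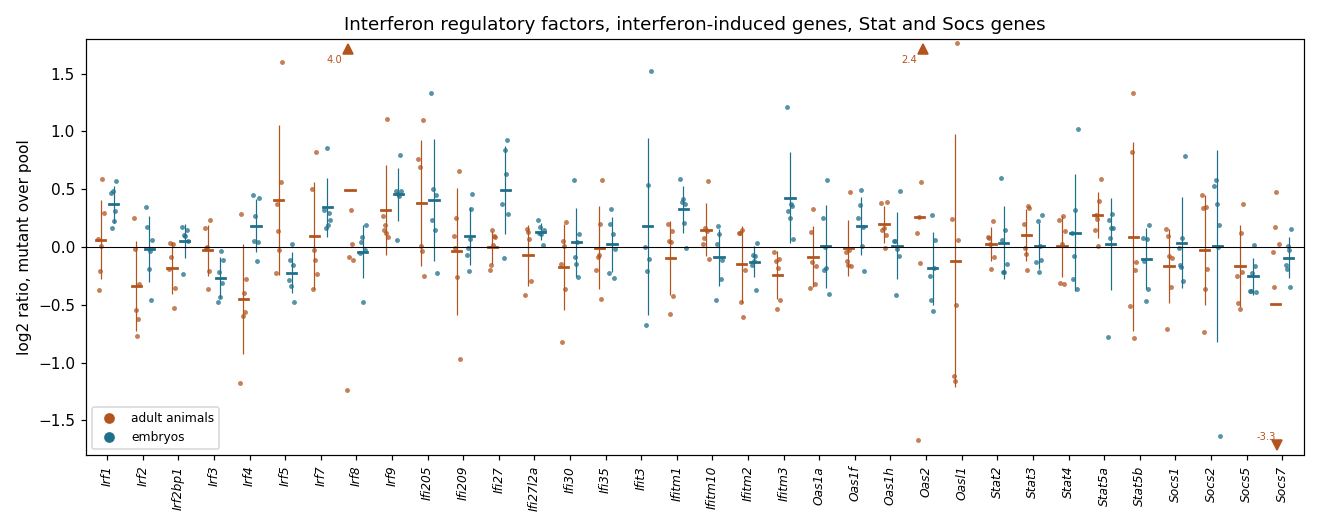
Log2 ratio of mutant over pool (y axis) for each interferon regulatory factor, interferon-induced, Stat and Socs gene (x axis), drawn as in the plot of antigen presentation genes; Ifit3 had too few adult values. Ifitm3 is the gene with 6 adult animals below 0 and 6 embryos above it.

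The promoters of these genes were searched for the DNA elements through which interferons act, taken 250 bases before to 50 after the gene's start from RefSeq (GRCm38.p6), in which 85 of 109 members had an entry. The core of the interferon-stimulated response element, TTTCNNTTTC on either strand, stood in 14 of the 85 promoters (16.5%) and in 9 of the 28 interferon and signalling genes (32.1%), against 3.99% of 27025 genes. The gamma-activated site, TTCNNNGAA, which reads the same on both strands, stood in 15 of 85 (17.6%), against 9.55% of all genes. The promoters of 3 genes are shown, since they hold these elements in front of, or just behind, the start of genes described here, with the matches in capitals.
Irf1, chr11:53769764-53770063, plus strand: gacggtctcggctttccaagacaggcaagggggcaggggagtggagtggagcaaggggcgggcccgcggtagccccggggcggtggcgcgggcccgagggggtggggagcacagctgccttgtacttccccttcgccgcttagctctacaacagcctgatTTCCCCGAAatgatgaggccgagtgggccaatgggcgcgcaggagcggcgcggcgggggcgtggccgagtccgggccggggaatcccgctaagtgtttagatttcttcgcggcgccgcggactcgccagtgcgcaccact
Ifit3, chr19:34583279-34583578, plus strand: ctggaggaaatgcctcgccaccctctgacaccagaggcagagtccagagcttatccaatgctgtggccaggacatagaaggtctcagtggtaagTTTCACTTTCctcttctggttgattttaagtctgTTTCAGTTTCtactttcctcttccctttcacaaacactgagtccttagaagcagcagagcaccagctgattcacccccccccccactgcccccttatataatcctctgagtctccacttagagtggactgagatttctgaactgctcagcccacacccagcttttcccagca
Ifitm3, chr7:141010695-141010994, minus strand: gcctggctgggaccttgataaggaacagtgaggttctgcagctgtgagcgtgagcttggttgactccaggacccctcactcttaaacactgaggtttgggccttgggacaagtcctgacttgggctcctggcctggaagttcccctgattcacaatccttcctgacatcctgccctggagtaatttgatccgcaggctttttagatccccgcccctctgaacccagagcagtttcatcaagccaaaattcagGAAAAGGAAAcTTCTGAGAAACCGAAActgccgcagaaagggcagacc

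Counted from the gene's start, the Irf1 promoter held a gamma-activated site at position -90, and Ifit3 held the response element core at -156 and -122. Ifitm3 held the core at 2 and 19 on the opposite strand, with a gamma-activated site at 13 that overlaps the second of these. Ifit3, an interferon-induced antiviral protein, was tested in the embryos alone, from -0.68 to 1.53 with a median of -0.052, and averaged 0.18 ± 0.77 (n = 6, adjusted p = 0.720). Its highest value is the 1.526 that embryo 6 also read for Cxcr5 and Il17rd. Irf9, with all embryos above 0, had 2 promoters in the table and neither element in them. Members with the response element core had an adult median of -0.085, with 5 of 13 above 0, and members with a promoter but no core had -0.0043, with 35 of 71 above 0. The fetal medians were 0.038 with the core, with 9 of 13 above 0, and 0.033 without it, with 34 of 54 above 0. For the gamma-activated site the adult medians were -0.056 with it and -0.0057 without, and the fetal medians 0.013 with it and 0.062 without. A match describes the letters of the promoter only.

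Antigen presentation genes were mixed in both ages, and the 6 embryos lay close together for H2-Ab1. H2-Ab1 encodes the beta chain of a class II molecule, which presents peptides to helper T cells. It lay between -0.0025 and 0.58 in the adults, with a median of 0.18, and between -0.44 and -0.31 in the embryos, with a median of -0.34. All 6 adults were above all 6 embryos. The adult mean was 0.24 ± 0.21 (adjusted p = 0.644), and the fetal mean of -0.36 ± 0.05, with the smallest fetal adjusted p of any member, did not pass (adjusted p = 0.0711). With the dye profile of -0.16 subtracted, the fetal value was -0.20 and passed (adjusted p = 0.0389), in the fit in which 30.3% of all features did. Without embryos 5 and 6 it was -0.34. Of the 5 class II genes 4 lay above 0 in the adults, with a median of 0.23, and 3 lay below 0 in the embryos, with a median of -0.043.

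Class I genes had means below 0 in the adults for 3 of 4, with a median of -0.27, and above 0 in the embryos for 3 of 4, with a median of 0.17. Of the 3 fetal means above 0, that of H2-T23 rests on embryo 1, at 9.52. The 4 other embryos with a value for H2-T23 lay below 0, and its median was -0.49. H2-Q10, a class I protein that mouse liver secretes, ran from -0.80 to 0.15 in adults with a median of -0.39, and from 0.034 to 0.36 in embryos with a median of 0.17. It was below 0 in 5 of 6 adults and above 0 in 6 of 6 embryos, at -0.37 ± 0.38 (adjusted p = 0.639) and 0.19 ± 0.12 (adjusted p = 0.189), the fetal mean being 0.18 without embryos 5 and 6. The adult orientations agreed, at -0.36 on the Cy5 arrays and -0.39 on the Cy3 arrays. H2-M3, which presents formylated bacterial peptides, ran from -2.03 to 0.081 in adults with a median of -0.36, and averaged -0.75 ± 0.85 (adjusted p = 0.639), against -0.016 ± 0.31 in embryos. H2-Ke6 carries an H2 symbol for its place in the locus and encodes a steroid dehydrogenase. It averaged -0.24 ± 0.34 in adults and 0.19 ± 0.26 in embryos.

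The 5 members with a value beyond 10 owed their large means to 1 animal each per age. H2-T23, the class I molecule Qa-1, had 16.75 on 1 probe in the Cy5 array of adult animal 4 and 16.8 in embryo 1. Cxcl9, a lymphocyte attractant induced by interferon gamma, read 16.9 in the Cy5 array of animal 3 and -3.28 in its Cy3 array. Il6, the acute phase cytokine, and Irf8, a factor of macrophages and dendritic cells, both read 16.4 in the Cy5 array of animal 2. Il2rb, a receptor chain for Il2 and Il15, read 17.2 in animal 5. Each of these readings was the highest value on its array. The 3 widest gaps between probe means of a gene, 3.65 for Il2rb, 2.37 for H2-T23 and 1.12 for Irf8, belonged to the same genes. With values beyond 10 left out no member passed by limma in any of the 4 comparisons. The adult means of 3.01 for Il2rb and 1.54 for Cxcl9 thus rest on 1 reading each.

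The adult member values depended on the dye more often than not. Of 108 members, 42 kept their sign between the 2 dye orientations (38.9%), against 30.5% of all features, and for 66 the dye profile was larger in size than the adult mean. The median size of the dye profile was 0.21 over members and 0.23 over all features. When the 6 Cy5 arrays were fitted by themselves 5 members passed, all above 0, against 6.55% of all features, namely Ifi205, Il17rc, Il24, Irf9 and Oas1f. When the 5 Cy3 arrays were fitted by themselves 4 passed, all below 0, against 4.19%, namely Ccl20, Il17rc, Il24 and Oas1f. So Il17rc, Il24 and Oas1f passed in both with opposite signs, for example Il17rc at 0.81 and -0.71. With the Cy3 columns turned in sign 8 of 108 members passed, all above 0, against 10.3% of all features. With the dye profile subtracted from the fetal values 27 of 83 passed, 12 above and 15 below 0, against 30.3%.

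**Figure D5:**
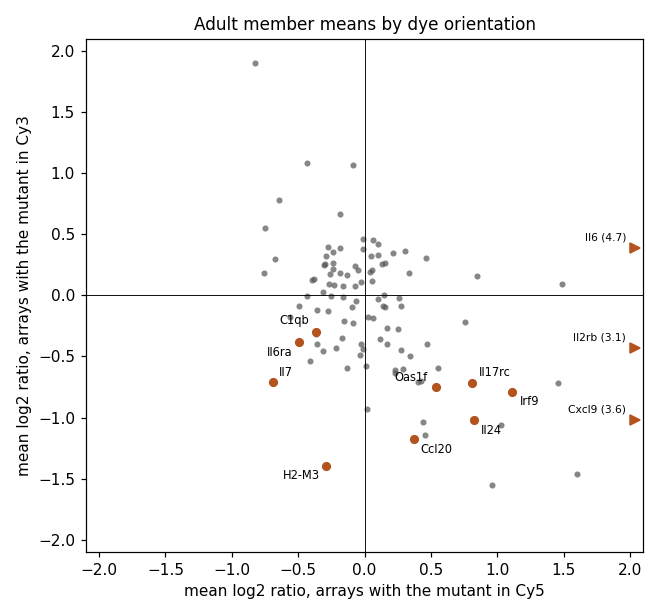
Mean log2 ratio of each adult member on the arrays with the mutant in Cy3 (y axis) against that on the arrays with the mutant in Cy5 (x axis), one point per gene; triangles stand at the right edge for Il6, Cxcl9 and Il2rb, whose Cy5 means, given in brackets, lie beyond the axis. C1qb, Il7, Il6ra and H2-M3 lie below 0 on both axes, while Irf9, Il17rc, Il24 and Oas1f lie above 0 with Cy5 and below 0 with Cy3.

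To ask where mutant over pool differed between the ages, adult values from arrays of the Cy5 layout alone were compared with the fetal values, which have that layout too. By limma 0 of 81 members passed, against 0.141% of 16314 features, and 13 had an unadjusted p under 0.05, against 20.2% of all features. Of these 13, 7 were higher in adults, against 1787 of 16314 features, and 6 lower, against 1507 of 16314 (9.24%). Irf9 came closest, at 1.11 ± 0.37 in adults and 0.45 ± 0.23 in embryos, a difference of 0.66 (adjusted p = 0.0893). Without adult animal 1 it passed, at 0.74 (adjusted p = 0.0312), as did H2-Q10 at -0.70 (adjusted p = 0.0249), in a fit in which 7.59% of all features passed. With all animals H2-Q10 differed by -0.55, at -0.36 ± 0.47 against 0.19 ± 0.12 (adjusted p = 0.151). With adult means over both dyes 0 members passed, against 0.0547% of features, and the difference of Irf9 changed sign, to -0.13. With the fetal rows named as deposited 8 of 105 passed, against 9.38%. With the title's number as a block 0 passed, against 0.0613%. Adults and embryos differed in age and pool together, which cannot be told apart.

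The adult and fetal values of H2-Ab1 and Il18r1 did not overlap on these arrays, with the adults higher, against 1.14% of all features, and no member had the adults lower without overlap, against 1.15%. H2-Ab1 averaged 0.10 ± 0.40 in adults and -0.36 ± 0.05 in embryos, a difference of 0.46 (adjusted p = 0.164). Il18r1 averaged 1.60 ± 1.33 and 0.18 ± 0.15, a difference of 1.42 (adjusted p = 0.138). Ifi27 lay lower in adults by -0.73, at -0.24 ± 0.44 against 0.49 ± 0.38 (adjusted p = 0.116). Ifitm3, with its opposite signs in the 2 ages, differed by -0.60, at -0.17 ± 0.48 against 0.43 ± 0.40 (adjusted p = 0.194). Of the chemokines, Ccl8 was at -0.75 ± 0.65 (n = 5) against -0.07 ± 0.20, and Ccl21a, a ligand of Ccr7, at -0.27 ± 0.62 against 0.19 ± 0.22, and neither passed. Il17rc differed by 0.56 (adjusted p = 0.161), but by -0.05 with adult means over both dyes.

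Female and male mutant embryos were compared since the study held both. By limma 0 of 83 members passed, against 0.0116% of 17212 features, and 1 had an unadjusted p under 0.05, against 3.18%. That gene was Ifi209, of the same DNA-binding family as Ifi205, at 0.071, 0.33 and 0.456 in females and -0.069, -0.011 and -0.21 in males. The sexes did not overlap, and the means of 0.29 ± 0.20 and -0.097 ± 0.10 (n = 3 each) differed by 0.38 (limma adjusted p = 0.998). The -0.21 of embryo 3 was also its value for Ccl22, Ccr6 and Ifit3, and the origin of this shared value was not tested. Oas1f, with 0.006, 0.176 and -0.211 in females and 0.252, 0.366 and 0.497 in males, ran the other way without overlap, by -0.38 (adjusted p = 0.998). Ifit3 averaged 0.65 ± 0.82 in females and -0.30 ± 0.35 in males (n = 3 each, limma adjusted p = 0.998). Its female mean includes embryo 6 at 1.526, the value shared with Cxcr5 and Il17rd. In all, 9 of 83 members had sexes that did not overlap, against 9.59% of all features. The sex of the embryo and the sex label of the pool coincide for all but 1 male.

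Of the genes of the same pathways outside the symbol rule, 0 passed by limma in any comparison. Of 17 other interferon-stimulated genes tested in the adults, 10 had a mean above 0, with a median of 0.04, and in the embryos 13 of 16 did, with a median of 0.084. In the embryos 4 of these 16 had an unadjusted p under 0.05, near the 20.8% of all features. Genes of antigen processing and of the class II machinery lay below 0 in the adults for 11 of 14, with a median of -0.11. In the embryos 10 of 14 lay above 0, with a median of 0.071. Tap1, a subunit of the transporter that supplies peptides to class I, averaged -0.25 ± 0.41 in adults and -0.31 ± 0.10 in embryos. The proteasome subunits Psmb8, Psmb9 and Psmb10 averaged -0.053, 0.004 and -0.089 in adults and 0.11, 0.098 and 0.013 in embryos. Complement genes beyond C1q were below 0 in 12 of 14 adult means, with a median of -0.18, and above 0 in 9 of 14 fetal means, with a median of 0.038. Toll-like receptor and NF-kB signalling genes split into 8 above and 9 below in adults and 10 above and 6 below in embryos. Other cytokines and their receptors were above 0 for 10 of 15 in adults and 9 of 12 in embryos.

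Markers of the cells that carry these genes were measured in the same arrays, and none passed. Hepatocyte markers were below 0 in 8 of 9 adult means, with a median of -0.31 and animal medians of 0.51, 0.0035, -0.69, -0.79, -0.24 and -0.74 in animals 1 to 6. They were above 0 in 6 of 8 fetal means, with a median of 0.18. Kupffer cell and macrophage markers had medians of 0.062 in adults and 0.13 in embryos, dendritic cell markers 0.11 and 0.25, T cell markers -0.0035 and -0.0027, B cell markers 0.03 and -0.15 and granulocyte markers -0.0081 and -0.18. Natural killer cell markers, 2 genes, had medians of -0.72 and 0.072, erythroid markers -0.18 and -0.13 and endothelial markers -0.53 and 0.0053. Their part in the member values was not tested.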

How the data were processed

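The deposited table of 20794 rows holds 17 columns of log ratios per array, taken as log2 from their values; per the labels' protocols RNA was reverse transcribed and labelled with Cy3 or Cy5. How the authors made these log2 values (image analysis, background, normalization) is not given in the sources used here. All 17 columns were used and 0 left out. Columns with the mutant in Cy3 were read as deposited, with mutant over pool as their direction. Fetal values were moved by 11 rows for probes up to 20000, where same-gene probes correlated best (Spearman 0.0907, against -0.0024 with no offset), and the other 794 fetal rows stayed unnamed. Symbols came from the platform annotation (12771 probes). A gene is the mean of its probes, and the arrays of an animal were averaged first. Fits used limma 3.58.1 in R 4.3.3 (lmFit, eBayes), against 0 for adults and embryos and between 2 groups for age and sex, with a value required in 4 animals per group, or for sex in 2 of each and 4 in all, two-sided, adjusted by Benjamini-Hochberg over all features at 0.05. The fits were tested on simulated data. The alternatives were other arrays, signs, row naming, dye correction, centring, filters, single probes and leaving out each animal. Genes named are, in each role group, the 3 with the smallest unadjusted p in adults and in embryos, the 2 smallest per block between ages and the 3 smallest between sexes, the C1q genes, members with a value beyond 10, and the 3 with the widest gaps between probes. The members, lists and tests were chosen with earlier results of these data known. The labels do not say whether the fetal pool was 1 pool. Promoters came from RefSeq, GRCm38.p6.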

Additional observations from a re-analysis of the deposited data

Results flagged for a closer look

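Some values stood far from the others of their group, by Dixon's test of the gap at an end of the group over its range. It was run on 116 groups of animals. Chance alone would mark about 1 in 20 of groups picked without regard to their values. Some genes here were named for holding a value beyond 10, so that share is no yardstick for them. The test marked 22 values. In the adults these were the highest animals for Il2rb at 17.2, Il6 at 7.85, Cxcl9 at 6.83, Irf8 at 4.05 and H2-T23 at 3.67, each of which holds a reading beyond 10 on 1 array. The others at the high end were Il34 at 1.70, Irf9 at 1.11, Oas1f at 0.47 and Tlr6 at 0.17, and at the low end Socs7 at -3.26 and Il18bp at -0.20. In the embryos the highest values that stood apart were H2-T23 at 9.52, Cxcr5 at 1.53, Ifitm3 at 1.21, Irf7 at 0.85, Socs1 at 0.79 and Cxcl12 at 0.45, and the lowest were Cxcl14 at -1.77, Il34 at -1.21, Stat5a at -0.78 and Irf8 at -0.48. The median over the interleukin members also stood apart in 1 embryo, embryo 6, at 0.27.

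Ifitm3 had all 6 adult animals below 0 and all 6 embryos above it, a difference of means of -0.67 with both adult dyes averaged. The test of that difference on the arrays of matched dye layout gave -0.60 and did not pass.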

How the results depend on the processing

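In each of the 4 comparisons 0 members passed by limma, and that count moved under these alternatives. In adults it was 8 with the Cy3 columns turned in sign, 5 on the Cy5 arrays alone and 4 on the Cy3 arrays alone, where Oas1f stood at 0.62, 0.53 and -0.75, Tlr5 at 0.57 in the first, and Il17rc at -0.71 and Il24 at -1.02 in the last. In embryos it was 27 with the dye profile subtracted, where these genes passed with the opposite sign: C1qa 0.32, Ccl8 0.51, Ifi209 -0.44, Il17rc -0.48, Il18r1 -1.31, Il1b 0.38, Il24 -0.61, Irf4 -0.44, Irf9 -0.50, Oas1f -0.47, Tlr12 0.27 and Tlr5 -0.52. Between ages it was 8 with the fetal rows named as deposited, and 0 to 2 with single animals left out, where adult animal 1 gave the 2. The causes were not tested. Under the other alternatives run it was 0, including the 11-row offset beyond probe 20000 and embryos 5 and 6 left out, both chosen after seeing the data. Named genes changed sign in 97 of 805 adult, 87 of 670 fetal, 2 of 159 age and 1 of 36 sex estimates.

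The titles of the adult and fetal samples share numbers. With that number as a replicate block 0 members passed. Same-numbered samples are different animals, and their deviations correlated at 0.015, 0.0075 and -0.0026, so the number pairs nothing.

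With 6 animals in each age and 1 orientation in the embryos, changes near the size of the dye profile were not separable from the dye, and brightness over background is unknown from ratios.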
